A study of Homo sapiens with 6 samples.

Results

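Human chromosome 19 carries the densest collection of zinc-finger (ZNF) genes of the genome, and 125 of them were read above threshold in HaCaT cells. A gene was counted if its symbol began with ZNF and a digit, if it lay on chromosome 19, if it was no pseudogene, and if it reached 1 cRPKM (a corrected RPKM, which scales reads by gene length and library total) in at least 2 of the 6 libraries. Of 231 such genes with values in the files, 125 met this rule and 106 did not; 11926 of all 19493 genes with values met the same threshold and were tested. ZNF235 and ZNF175 lay just inside the threshold, with second-highest values of 1.02 and 1.03 cRPKM, and ZNF264 and ZNF780A just outside it, at 0.99 and 0.90 cRPKM. The members comprised 122 protein-coding genes and 3 non-coding transcripts named after a ZNF gene (ZNF225-AS1, ZNF433-AS1 and ZNF584-DT). Since the use of strand in counting is not known, reads of these 3 cannot be separated from those of the genes they overlap or adjoin, and their values are uncertain. Reads shared by the close paralogs of this family may likewise be divided among them.

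HaCaT is an immortalised line of human skin keratinocytes, and these cells carried a marsupial enzyme, the CPD photolyase from Potorous tridactylus, which splits cyclobutane pyrimidine dimers of DNA when visible light drives it. The study has 3 groups of 2 libraries. Cells of the first group received 15 J/m2 of UVC at 254 nm and 2 h of white light, which activated the photolyase, and were harvested 6 h after irradiation (UVC with active photolyase). The second group had the same dose and harvest time with the photolyase inactive (UVC), and the third was untreated, also with inactive photolyase (control). White light was given to the first group alone, so its own effect and that of the photolyase cannot be told apart. Whether the 2 libraries of a group were made from separate cultures is not stated in the labels, and the p-values measure the spread between these libraries only.

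Most ZNF genes of chromosome 19 encode a KRAB domain before an array of C2H2 zinc fingers. The fingers bind DNA, and the KRAB domain recruits TRIM28 (KAP1), which brings the histone methyltransferase SETDB1, HP1 proteins and histone deacetylases and so builds heterochromatin. Many of these repressors silence transposable elements, and their genes arose by tandem duplication and lie in long runs of neighbours. A KRAB-type box was found by its letters in the coding sequence of 95 members and was not found in 27, among them ZNF446, which is known to have one, so the second set is not free of KRAB genes. Members had 0 (ZNF738) to 31 (ZNF91) fingers, with a median of 11.

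The promoters of 4 members, chosen after their values were seen, are shown because these genes stand for the patterns described here: ZNF274 and ZNF430 were low after UVC alone, ZNF554 was high with active photolyase alone, and ZNF358 was high after UVC. Each sequence runs 5′ to 3′ from 250 bases before to 50 bases after the gene's first listed start in RefSeq (GRCh38.p14, plus strand), at chr19:58182811-58183110 for ZNF274, chr19:21020407-21020706 for ZNF430, chr19:2819618-2819917 for ZNF554 and chr19:7515853-7516152 for ZNF358. Capitals mark matches, on either strand, to the motifs of 4 promoter factors, and adjoining or overlapping matches run together. The first motif is the GC box bound by SP1, searched as GGGCGG. The second is the CCAAT box, searched by the letters of its name. The third is the motif of the ETS factors, searched as CCGGAAG. The last is the palindromic motif of NRF1.
ZNF274: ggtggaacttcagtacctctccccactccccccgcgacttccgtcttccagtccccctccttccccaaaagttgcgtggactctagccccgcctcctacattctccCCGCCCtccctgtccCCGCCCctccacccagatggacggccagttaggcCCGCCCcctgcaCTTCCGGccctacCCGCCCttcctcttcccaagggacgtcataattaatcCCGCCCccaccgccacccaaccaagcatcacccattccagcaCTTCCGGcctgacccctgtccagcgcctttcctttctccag
ZNF430: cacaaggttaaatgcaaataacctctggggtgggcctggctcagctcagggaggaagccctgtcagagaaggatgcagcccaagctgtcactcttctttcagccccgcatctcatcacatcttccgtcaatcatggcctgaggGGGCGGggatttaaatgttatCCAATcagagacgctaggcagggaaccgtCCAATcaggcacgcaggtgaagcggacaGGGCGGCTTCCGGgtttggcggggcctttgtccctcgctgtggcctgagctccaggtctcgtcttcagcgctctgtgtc
ZNF554: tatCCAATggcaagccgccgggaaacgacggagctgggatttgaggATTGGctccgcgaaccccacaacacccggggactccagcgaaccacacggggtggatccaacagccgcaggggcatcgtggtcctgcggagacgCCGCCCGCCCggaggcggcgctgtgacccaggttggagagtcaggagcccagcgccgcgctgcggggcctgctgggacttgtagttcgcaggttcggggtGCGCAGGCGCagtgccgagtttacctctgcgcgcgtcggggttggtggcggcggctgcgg
ZNF358: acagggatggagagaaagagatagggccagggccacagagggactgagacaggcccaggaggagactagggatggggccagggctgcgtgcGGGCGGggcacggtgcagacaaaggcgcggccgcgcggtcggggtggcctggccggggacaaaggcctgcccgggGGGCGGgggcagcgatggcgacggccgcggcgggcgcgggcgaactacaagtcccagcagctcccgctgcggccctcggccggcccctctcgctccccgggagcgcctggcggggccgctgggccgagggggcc
ZNF274 held 5 GC boxes and 2 ETS motifs, and ZNF430 held 2 GC boxes, 2 CCAAT boxes and 1 ETS motif. ZNF554 held 2 overlapping GC boxes, 2 CCAAT boxes and 1 NRF1 motif, and ZNF358 held 2 GC boxes and none of the other 3 motifs.

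Of the 125 members, 111 had a promoter in this table. The ETS motif was found in 47.7% of them, against 19.7% of the 9457 promoters of tested genes and 10.7% of all 27305 promoters. A CCAAT box was found in 54.1% of members, against 37.1% of tested genes and 35.7% of all promoters. The GC box was as frequent among members (69.4%) as among tested genes (70.2%). Some motifs differed in frequency between members with and without a found KRAB-type box, and none of these differences was tested. The ETS motif was in 54.2% of the 83 promoters of genes with a KRAB-type box and in 24% of the 25 without, the CCAAT box in 61.4 and 28.0%, and the NRF1 motif in 4.8 and 32.0%. The GC box, in 68.7 and 72.0%, and the YY1 motif, in 4.8 and 4.0%, were about as frequent in either set. A YY1 motif (AAGATGGCG) was in 4.5% of members and 4.1% of tested genes, a cyclic AMP response element (TGACGTCA) in 6.3 and 3.3%, and a TATA box (TATAAA) in 2.7 and 6.1%. These are matches of letters in a window, and no binding was measured.

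Levels below are cRPKM divided by the library's TMM factor (the trimmed mean of M values, which scales libraries on the bulk of their genes), called scaled cRPKM. The family was expressed at low level: the median member had 2.40 and 2.35 scaled cRPKM in the libraries of UVC with active photolyase, 1.75 and 1.72 in those of UVC, and 2.37 and 2.43 in control. The median over all tested genes was also lowest in the UVC libraries, with 9.23 and 9.22 scaled cRPKM in UVC with active photolyase, 7.95 and 7.99 in UVC, and 9.56 and 9.73 in control. The highest mean levels belonged to ZNF146, which consists almost wholly of zinc fingers, and to ZNF562, ZNF581, ZNF358 and ZNF274. In all, 83 members reached 1 cRPKM in every library. The median read count per member ran from 309 to 416 per library.

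Together the members took 1295 and 1230 of the CPM (counts scaled to the library total, here divided by the TMM factor) in UVC with active photolyase, 803 and 795 in UVC, and 1255 and 1309 in control. The UVC libraries were thus the lowest, and the other groups overlapped. Members with a KRAB-type box made up 918 and 861 of these with active photolyase, 516 and 516 after UVC, and 877 and 931 in control. Much of the gap comes from the TMM factors. These were 1.18 in both UVC libraries, 0.954 and 0.957 with active photolyase, and 0.886 and 0.884 in control. Not divided by them, the members took 1235 and 1177 CPM with active photolyase, 949 and 941 after UVC, and 1112 and 1157 in control.

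**Figure D1:**
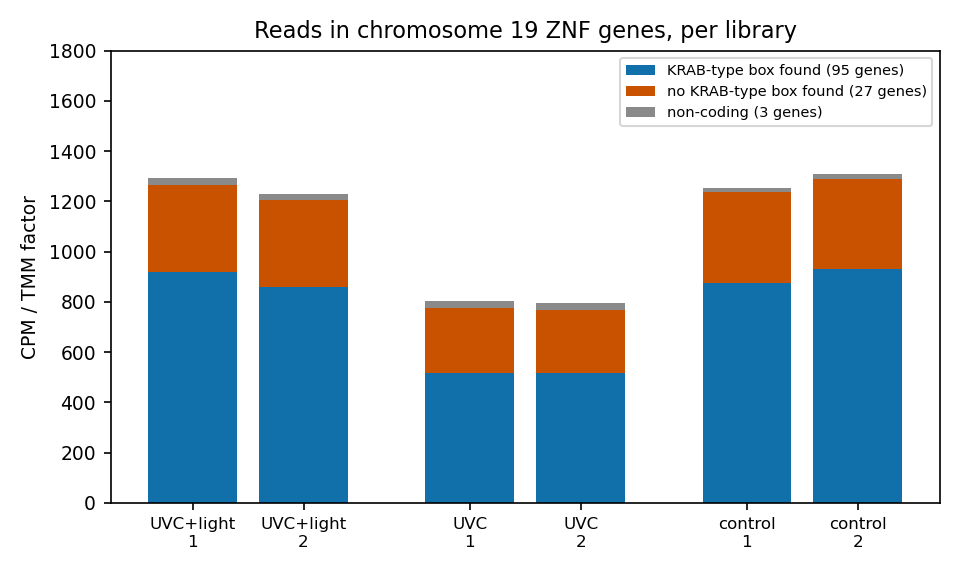
CPM, divided by the TMM factor, that fell in the 125 ZNF genes of chromosome 19 in each of the 6 libraries, stacked by whether a KRAB-type box was found; "UVC+light" is UVC with active photolyase. The 2 UVC libraries stand at 803 and 795, below the other 4, which stand between 1230 and 1309. Not divided by the TMM factor, the UVC libraries had 949 and 941 CPM and the other 4 between 1112 and 1235.

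Total counts were 57669389 to 70005705 per library, and lowest in the 2 UVC libraries, which limits the precision of low members there. The share of counts from mitochondrially encoded genes was 4.09 and 3.21% in UVC with active photolyase, 5.13 and 5.28% in UVC, and 3.32 and 3.92% in control. All 10 keratinocyte markers of a fixed list were tested, and their summed level was 26400 to 26460 scaled cRPKM with active photolyase, 16810 to 17180 after UVC and 27070 to 27760 in control. Of other cell types, 1 of 7 melanocyte, 2 of 9 fibroblast and 4 of 11 immune markers reached the threshold, and TYR, CD1A and MS4A1 were at 0. The summed immune markers stood at 188 to 199 scaled cRPKM with active photolyase, 182 to 183 after UVC and 133 to 146 in control, and the part of these shifts in the results was not tested. Replicates agreed in log2 level over the members with r from 0.990 to 0.994.

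After UVC, most chromosome 19 ZNF genes were lower than in control. Of the 125 members, 82 were called lower and 26 higher at an adjusted p under 0.05, and 17 were not called. The background was high, with 85.6% of all tested genes called, but it was even between directions: 43.1% were lower and 42.5% higher. The median log2 change was −0.53 over the members and 0.00 over all tested genes. At least 2-fold falls were called for 37 members, against a background of 18.6%, and 2-fold rises for 7, against 9.89%. In bulk RNA, fewer cells of a kind and less RNA per cell cannot be told apart. Scaling by library totals moved the median of all genes to 0.42 and that of the members to −0.11, with 57 members lower and 36 higher. Of the members, 7 passed the threshold through the UVC libraries alone, 2 through control and 2 through active photolyase. Such genes had to differ between groups in unscaled cRPKM, though not to be called. ZNF383, which passed through UVC alone, was called in no comparison (log2 change after UVC 0.19 ± 0.18). Without these 11, 79 of 114 members were lower and 20 higher.

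**Figure D2:**
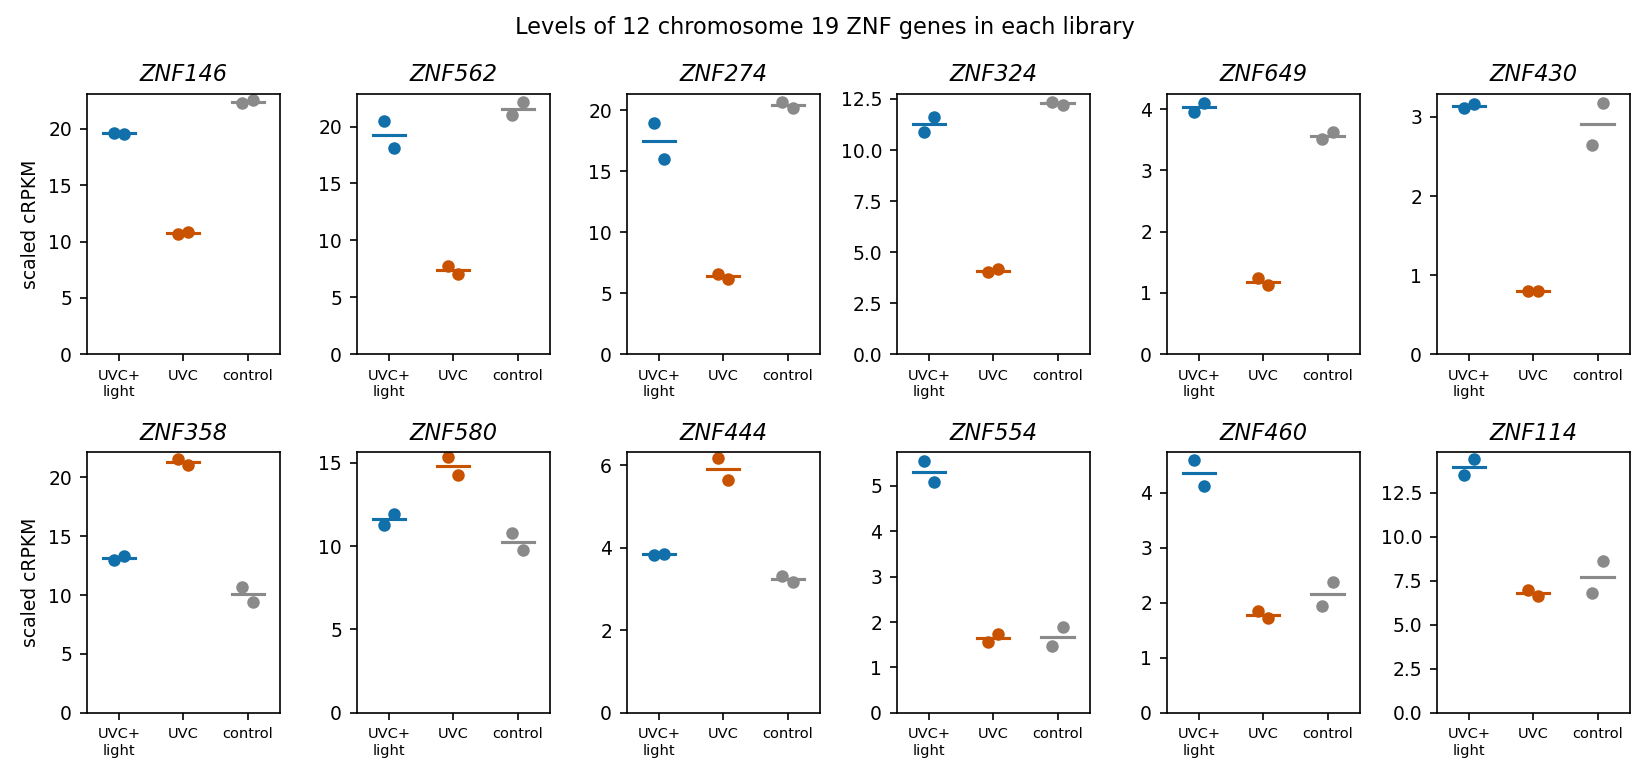
Scaled cRPKM of 12 ZNF genes of chromosome 19 in each library (points) with the group mean (bar); "UVC+light" is UVC with active photolyase. In the top row the UVC libraries are the lowest of the 3 groups, ZNF358, ZNF580 and ZNF444 are highest after UVC, and ZNF554, ZNF460 and ZNF114 are highest with active photolyase.

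ZNF274 is a KRAB protein that binds the 3′ ends of other ZNF genes and recruits SETDB1 and TRIM28 there. It had 6.59 and 6.16 scaled cRPKM after UVC, against 20.6 and 20.1 in control. Both UVC libraries were far below both control libraries, and the log2 change was −1.67 ± 0.08 (SE, n = 2 each, adjusted p = 1.05e-10). ZNF562 stood at 7.74 and 7.09 scaled cRPKM after UVC, against 21.0 and 22.1 in control, a log2 change of −1.54 ± 0.07 (adjusted p = 6.88e-11). ZNF324 had 4.0 and 4.18 scaled cRPKM after UVC and 12.3 and 12.2 in control, a log2 change of −1.58 ± 0.07 (adjusted p = 8.64e-11). All 3 fell by more than 2-fold, and the UVC libraries were the low ones in each. That the libraries of the groups do not overlap sets no gene apart, since this held for 11043 of the 11926 tested genes after UVC.

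ZNF146, the highest member, had 10.6 and 10.8 scaled cRPKM after UVC, against 22.3 and 22.5 in control, and its log2 change was −1.06 ± 0.05 (adjusted p = 1.23e-10). ZNF317, with 7.71 and 7.59 after UVC and 15.9 and 16.4 in control, changed by −1.08 ± 0.05 (log2, adjusted p = 2.3e-10). ZNF473, which takes part in the 3′ processing of histone pre-mRNA, had 2.03 and 2.18 scaled cRPKM after UVC and 4.32 and 4.73 in control, and its log2 change was −1.10 ± 0.07 (adjusted p = 6.62e-09). All 3 stood lower in the UVC libraries, at about the same log2 change.

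The deepest falls on the log2 scale were in low-level members. ZNF529 had 0.55 and 0.56 scaled cRPKM after UVC, against 2.02 and 2.10 in control, and changed by −1.90 ± 0.11 (log2, adjusted p = 1.02e-09). ZNF430 had 0.80 in both UVC libraries and 2.65 and 3.18 scaled cRPKM in control, with a log2 change of −1.86 ± 0.12 (adjusted p = 3.92e-09). The other members of the 10 largest falls at 2 scaled cRPKM or more in the higher group were ZNF699 (−1.88 ± 0.15), ZNF627 (−1.66 ± 0.17), ZNF14 (−1.64 ± 0.12), ZNF28 (−1.63 ± 0.10), ZNF649 (−1.58 ± 0.09) and ZNF136 (−1.57 ± 0.12). All 10 had a KRAB-type box. Below that level, ZNF567, which has the box too, changed by −1.81 ± 0.16.

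Of the 26 members higher after UVC, 16 had a KRAB-type box, 7 were coding genes in which none was found (ZNF446 among them), and 3 were non-coding. Of the 10 largest rises at 2 scaled cRPKM or more, a box was found in 1, ZNF66. This level limit leaves out rises of KRAB-type genes at lower level, such as ZNF235 (1.24 ± 0.20) and ZNF577 (1.22 ± 0.15), which met the 1 cRPKM threshold through the UVC libraries alone, and ZNF846 (1.10 ± 0.18). ZNF358 had 21.5 and 21.0 scaled cRPKM after UVC, against 10.7 and 9.40 in control, a log2 change of 1.08 ± 0.07 (adjusted p = 2.77e-09). ZNF444 stood at 6.17 and 5.65 scaled cRPKM after UVC, against 3.31 and 3.17 in control, a log2 change of 0.87 ± 0.09 (adjusted p = 3.84e-07). ZNF428 had 5.03 and 5.04 scaled cRPKM after UVC and 2.88 and 2.14 in control, and changed by 1.01 ± 0.13 (log2, adjusted p = 7.4e-06). For all 3 the UVC libraries were the high ones.

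ZNF580 had 15.4 and 14.2 scaled cRPKM after UVC, against 10.8 and 9.75 in control, a log2 change of 0.53 ± 0.08 (adjusted p = 2.72e-05). ZNF524, the shortest gene of the family, had 6.02 and 5.85 scaled cRPKM after UVC and 3.59 and 3.61 in control, with a log2 change of 0.72 ± 0.10 (adjusted p = 1.76e-05). ZNF66 had the largest log2 change, 1.24 ± 0.23 (adjusted p = 0.000166), from 2.78 and 2.47 scaled cRPKM after UVC against 0.77 and 1.46 in control, whose libraries lay far apart. The rest were ZNF225-AS1 (0.86 ± 0.09), ZNF446 (0.51 ± 0.11), ZNF584-DT (0.45 ± 0.11) and ZNF296 (0.41 ± 0.10, and 0.27 without UVC replicate 1).

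With active photolyase, most members stood higher than after UVC alone. Of the 125 members, 79 were called higher and 18 lower, and 28 were not called; over all tested genes 79.1% were called, 39.2% higher and 39.9% lower. The median log2 change was 0.54 over the members and −0.04 over all tested genes. At least 2-fold rises were called for 33 members, against a background of 14%, and 2-fold falls for none, against 1.37%; the 18 falls were thus all smaller. By library totals the median of all genes was −0.34 and that of the members 0.24, with 63 members higher and 31 lower. Without the members that passed in 1 group alone, 76 of 114 were higher and 13 lower. This comparison and that of UVC against control share the UVC libraries, so a low value there enters both.

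ZNF430 had the largest rise, with 3.11 and 3.17 scaled cRPKM with active photolyase against 0.80 in both libraries of UVC, a log2 change of 1.97 ± 0.12 (adjusted p = 3.08e-09). ZNF649 had 3.95 and 4.11 scaled cRPKM with active photolyase and 1.24 and 1.12 after UVC, and changed by 1.76 ± 0.09 (log2, adjusted p = 6.07e-10). ZNF274 had 18.9 and 16.0 scaled cRPKM with active photolyase, against 6.59 and 6.16 after UVC, a log2 change of 1.45 ± 0.08 (adjusted p = 7.63e-10). For these genes the UVC libraries were again the low ones.

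ZNF562 stood at 20.5 and 18.1 scaled cRPKM with active photolyase, against 7.74 and 7.09 after UVC, a log2 change of 1.38 ± 0.07 (adjusted p = 3.52e-10). ZNF324 had 10.9 and 11.6 scaled cRPKM with active photolyase and 4.0 and 4.18 after UVC, with a log2 change of 1.46 ± 0.07 (adjusted p = 3.4e-10). ZNF554 (1.69 ± 0.11), ZNF611 (1.42 ± 0.13), ZNF57 (1.41 ± 0.11), ZNF468 (1.34 ± 0.07) and ZNF836 (1.32 ± 0.12) completed the 10 largest rises, and all 10 had a KRAB-type box. ZNF146 rose by 0.87 ± 0.05 (log2, adjusted p = 1.66e-09), to 19.6 and 19.5 scaled cRPKM.

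Among the members that fell, ZNF358 had 13.0 and 13.3 scaled cRPKM with active photolyase, against 21.5 and 21.0 after UVC, a log2 change of −0.70 ± 0.07 (adjusted p = 3.79e-07). ZNF444 had 3.83 and 3.85 scaled cRPKM with active photolyase against 6.17 and 5.65 after UVC (log2 change −0.62 ± 0.08, adjusted p = 1.21e-05). ZNF428 (−0.45 ± 0.12) and ZNF580 (−0.35 ± 0.08) also fell. Falls of genes under 2 scaled cRPKM, such as ZNF235 (−0.84 ± 0.19) and ZNF429 (−0.75 ± 0.19), which met the threshold through the UVC libraries alone, are left out of this order. The remaining falls above that level, ZNF225-AS1, ZNF226, ZNF700, ZNF875 and ZNF524, had log2 changes between −0.32 and −0.23 and lost their call when 1 library was left out, for instance UVC replicate 2, without which they were between −0.31 and −0.22.

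Set directly against control, the members with active photolyase showed no common direction. Of the 125, 30 were called higher, 29 lower and 66 not; over all tested genes 65.8% were called, 33.0% higher and 32.9% lower. The median log2 change was −0.04 over the members and 0.01 over all tested genes. The members called amounted to 47.2%, fewer than the background. The quartiles of the log2 change were about alike, at −0.242 and 0.262 over the members and −0.265 and 0.291 over all tested genes. The fewer calls thus do not show smaller changes, and low-level genes are measured less precisely. Those at least 2-fold higher numbered 3 (background 4.06%), and none was 2-fold lower (background 2.02%). By library totals 42 were higher and 18 lower. Without the second active photolyase library, 28 were higher and 15 lower, and without the first control library 26 were higher and 34 lower.

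ZNF554 stood apart, with 5.54 and 5.08 scaled cRPKM with active photolyase, 1.55 and 1.74 after UVC, and 1.47 and 1.89 in control. The photolyase libraries alone were high, and the other 2 groups overlapped. Its log2 change against control was 1.66 ± 0.11 with active photolyase (adjusted p = 3.64e-08) and −0.03 ± 0.12 after UVC (adjusted p = 0.848). ZNF460 had 4.60 and 4.13 scaled cRPKM with active photolyase, 1.84 and 1.73 after UVC, and 1.94 and 2.38 in control, and its log2 change with active photolyase against control was 1.02 ± 0.10 (adjusted p = 1.28e-06). ZNF114, a gene of 3 fingers, had 13.5 and 14.4, then 6.97 and 6.64, and 6.84 and 8.62 scaled cRPKM in the same order of groups, with a log2 change of 0.85 ± 0.09 (adjusted p = 3.18e-06).

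ZNF331, an imprinted gene, had 1.2 and 1.16 scaled cRPKM with active photolyase, 0.83 and 0.75 after UVC, and 0.54 and 0.66 in control. It met the threshold through the photolyase libraries alone, where it is high, so its log2 change of 1.02 ± 0.13 against control is given as a value only. ZNF358, higher after UVC, was also above control with active photolyase, by 0.39 ± 0.07 (log2, adjusted p = 0.000269), as were ZNF524 (0.50 ± 0.11) and ZNF428 (0.56 ± 0.14, and 0.36 without control replicate 2). ZNF586 (0.50 ± 0.12) and ZNF836 (0.42 ± 0.11), both called lower after UVC, were above control with active photolyase. The fall of ZNF586 after UVC, −0.315 (log2), lost its call when 1 library was left out, for instance control replicate 1 (−0.17). By library totals its change after UVC was 0.10. Of the genes lowest after UVC, ZNF529 stayed below control with 1.40 and 1.21 scaled cRPKM with active photolyase against 2.02 and 2.10, a log2 change of −0.66 ± 0.10 (adjusted p = 5.47e-05). ZNF14 (−0.61 ± 0.11), ZNF414 (−0.61 ± 0.11), ZNF699 (−0.60 ± 0.14), ZNF613 (−0.53 ± 0.12), ZNF506 (−0.48 ± 0.10), ZNF561 (−0.46 ± 0.07), ZNF787 (−0.42 ± 0.06) and ZNF558 (−0.40 ± 0.08) were also lower. ZNF627 (−0.51 ± 0.15) lost its call without control replicate 2 (−0.39) and without the second active photolyase library (−0.31). For ZNF430, ZNF649 and ZNF324 the change against control was not called, at 0.11 ± 0.10, 0.18 ± 0.08 and −0.13 ± 0.07 (log2).

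Smaller changes were seen in several members with a known role. ZNF91, a repressor of SVA retrotransposons with 31 fingers, had 2.44 and 2.47 scaled cRPKM with active photolyase, 2.18 and 2.19 after UVC, and 2.40 and 3.26 in control. Its log2 change after UVC was −0.37 ± 0.12 (adjusted p = 0.0124), and was −0.14 and not called without control replicate 2, whose value stood above the others; by library totals it was 0.045. ZNF675, an inhibitor of TRAF6 signalling, had a log2 change after UVC of −0.37 ± 0.13 (adjusted p = 0.0164) that lost its call without control replicate 2 (−0.24) or UVC replicate 1 (−0.32), and by library totals was 0.051. ZNF419, known as the source of a minor histocompatibility antigen, had 3.51 and 3.42 scaled cRPKM with active photolyase, 2.08 and 2.45 after UVC, and 3.32 and 3.60 in control, and changed after UVC by −0.61 ± 0.12 (log2, adjusted p = 0.000388). ZNF480 was not called in any comparison, with log2 changes of −0.15 ± 0.09 after UVC, 0.02 ± 0.09 with active photolyase against UVC, and −0.13 ± 0.09 with active photolyase against control.

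In the main test, the 95 genes with a KRAB-type box and the 27 in which none was found shared the direction of the family. With a filter of 5 cRPKM in 2 libraries, the set without the box did not (see the section on processing). Among all tested genes, 43.1% were lower and 42.5% higher after UVC, and 39.2% higher and 39.9% lower with active photolyase against UVC. After UVC, 65 of the 95 were lower and 16 higher (median log2 change −0.53), and of the 27, 17 were lower and 7 higher (−0.68). With active photolyase against UVC, 64 of the 95 were higher and 12 lower (0.61), and of the 27, 15 were higher and 5 lower (0.38). A difference showed among the better expressed genes. Of 10 KRAB-type genes with a mean of at least 5 scaled cRPKM, 9 were lower after UVC (median −1.14; ZNF114 was not called, and by library totals stood at 0.24), and all 10 were higher with active photolyase than after UVC (1.19). Of 8 genes at this level without the box, 5 were lower and 3 higher after UVC (−0.92), and 5 were higher and 2 lower with active photolyase (0.86). At a mean of 2 to 5 scaled cRPKM, 31 of 39 KRAB-type genes were lower and 3 higher after UVC (−0.52). Of 10 without the box, 6 were lower and 4 higher (−0.56). Under 2 scaled cRPKM the order was the reverse. Of 46 KRAB-type genes 25 were lower and 13 higher (−0.44), and of 9 without the box 6 were lower and 0 higher (−0.68). The 13 rises include genes that met the threshold through the UVC libraries alone, such as ZNF235 and ZNF577. The level split was chosen after seeing the data, and the difference between the sets was not tested.

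**Figure D3:**
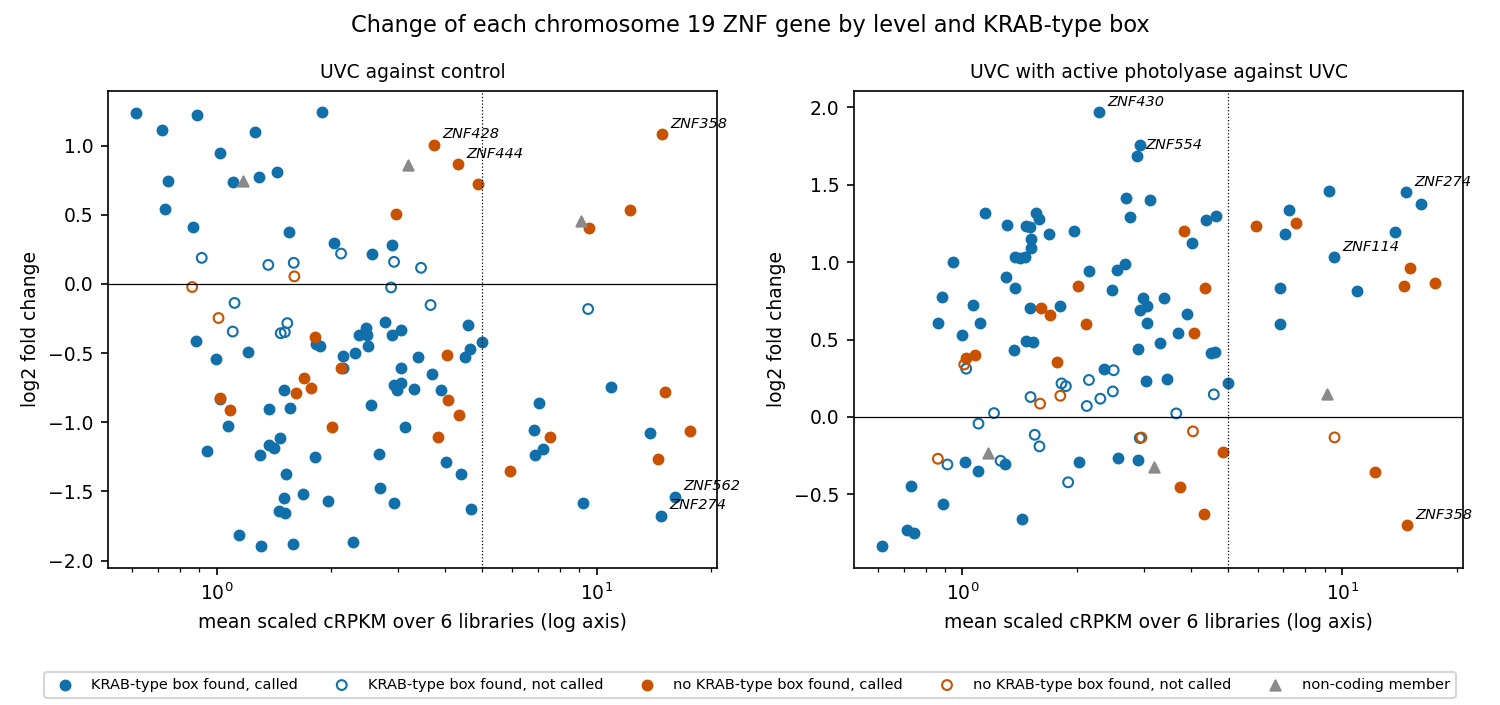
Log2 fold change of each member against its mean scaled cRPKM over 6 libraries (log axis; dotted line at 5), after UVC against control (left) and with active photolyase against UVC (right); filled circles were called. To the right of the dotted line, the KRAB-type genes are below 0 after UVC (ZNF114, at −0.18, was not called, and by library totals stood at 0.24) and above 0 with active photolyase, while ZNF358 goes the other way in both panels.

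The change after UVC showed no steady trend with the number of fingers or the span of the gene. The middle class of each had the lowest median, and this was not tested. The counts below stand beside 43.1% lower and 42.5% higher after UVC over all tested genes. After UVC, 26 of 43 members with 0 to 9 fingers were lower and 10 higher (median log2 change −0.53), 37 of 51 with 10 to 14 fingers were lower and 6 higher (−0.76), and 19 of 28 with 15 or more were lower and 7 higher (−0.51). Over the 122 coding members, Spearman's rho of the log2 change after UVC was −0.09 with the number of fingers, 0.03 with the gene's span and −0.30 with the effective length used for cRPKM. With the mean level over 6 libraries it was −0.21, and −0.30 over the 95 genes with a KRAB-type box, so higher-level genes tended to fall more. The log2 changes in these correlations all come from the same 4 libraries, and the mean level includes them. Spans ran from 3.12 kb (ZNF524) to 161.59 kb (ZNF675). Of 42 members spanning 15.5 kb or less 24 were lower after UVC, of 41 between these and 28.6 kb 32 were lower, and of 42 longer ones 26 were lower, with median log2 changes of −0.47, −0.82 and −0.37.

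Along the chromosome the members fell into runs of at least 3 neighbouring ZNF genes with at most 2 other protein-coding genes between them, and 11 runs held all but 22 of the members. Only protein-coding genes were placed in runs, so the 22 include the 3 non-coding members wherever they lie. Most genes of any kind were called: after UVC, 43.1% of all tested genes were lower and 42.5% higher. With active photolyase against UVC, 39.2% were higher and 39.9% lower. No run was tested against these shares. The 2 largest, with 24 members each, were those from ZNF577 to ZNF331 and from ZNF264 to ZNF8. In the first, 17 members were lower and 4 higher after UVC (median log2 change −0.68), and 19 higher and 2 lower with active photolyase against UVC (0.71). In the second, 20 were lower and 2 higher after UVC (−0.57), and 19 higher and 2 lower with active photolyase (0.77). In 5 smaller runs at least 4 members were lower after UVC, and fewer were higher. From ZNF699 to ZNF846, 6 of 8 members were lower and 2 higher (median −0.96), and from ZNF627 to ZNF791 5 of 8 and 1 (−0.61). From ZNF101 to ZNF254, 7 of 11 were lower and 3 higher (−0.37). The run from ZNF565 to ZNF573 had 4 of 6 lower and 1 higher (−0.87), and that from ZNF497 to ZNF446 4 of 5 and 1 (−1.24). An even split was seen in 2 runs. In the run from ZNF283 to ZNF180, 3 of 7 members were lower and 3 higher after UVC. However, ZNF180 and ZNF235 met the threshold in 1 group alone (control and UVC), which fixed their directions in unscaled cRPKM. ZNF226 lost its call when 1 library was left out (0.14 without control replicate 1). ZNF227, in the same run, had 1.90 and 2.01 scaled cRPKM after UVC against 1.12 in both control libraries (log2 change 0.81 ± 0.11, adjusted p = 8.84e-06). In the short run from ZNF579 to ZNF580, 2 of 5 were lower and 2 higher after UVC. Neither of the 2 members of the run from ZNF302 to ZNF792 was called in any comparison. Of the 3 members of the run from ZNF554 to ZNF77, 1 was lower and 0 higher after UVC. All 3 were higher with active photolyase, both against UVC (median 1.41) and against control (0.57). Of these, ZNF57 had 4.15 and 4.58 scaled cRPKM with active photolyase, 1.71 and 1.58 after UVC, and 3.38 and 3.35 in control, and its change against control lost its call without the second active photolyase library (0.30). ZNF77 had 1.62 and 1.77, then 1.28 and 1.24, and 1.19 and 1.11 scaled cRPKM in the same order, and its change against UVC lost its call without UVC replicate 2 (0.41) or without the second active photolyase library (0.33).

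**Figure D4:**
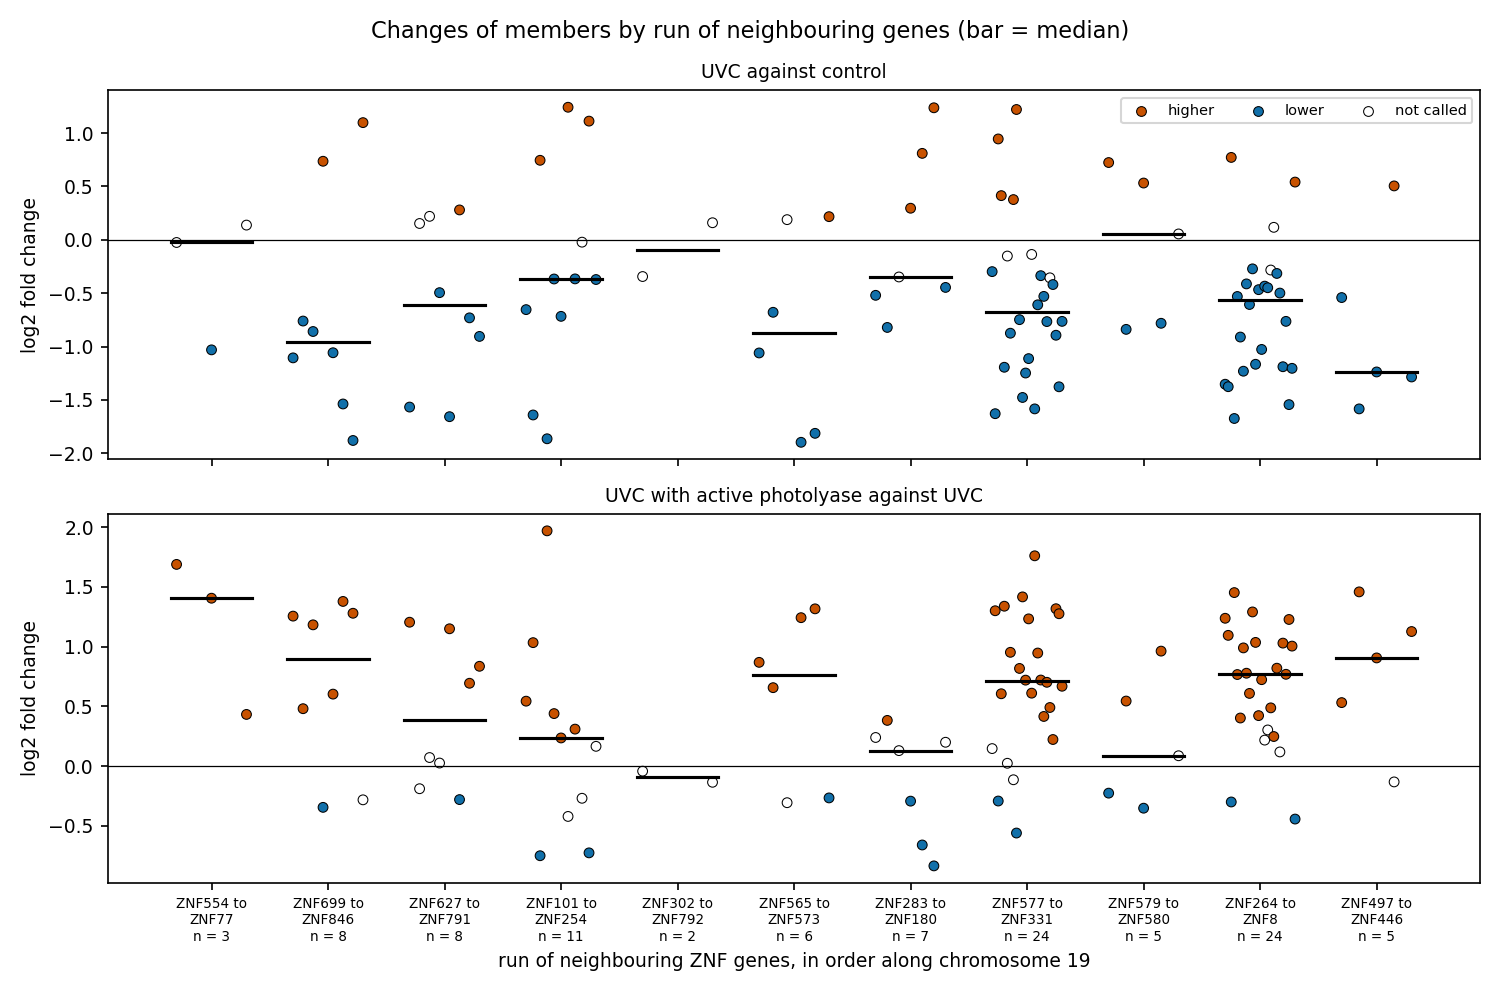
Log2 fold change of the members in each run of neighbouring ZNF genes, in order along chromosome 19, after UVC against control (top) and with active photolyase against UVC (bottom); bars are medians and colours give the call. The runs from ZNF577 to ZNF331 and from ZNF264 to ZNF8 lie mostly below 0 in the top panel and above it in the bottom panel, with medians of −0.68 and −0.57 against 0.71 and 0.77.

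Beside the family, 179 tested ZNF genes of other chromosomes had medians of −0.33 after UVC and 0.18 with active photolyase against UVC (log2), with 100 lower and 52 higher in the first comparison and 90 higher and 49 lower in the second. The 689 other tested genes of chromosome 19 had medians of 0.24 and −0.14, with 211 lower and 371 higher after UVC and 202 higher and 323 lower with active photolyase. All tested genes were 43.1% lower and 42.5% higher after UVC, and 39.2% higher and 39.9% lower with active photolyase against UVC. The differences between these lists were not tested.

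**Figure D5:**
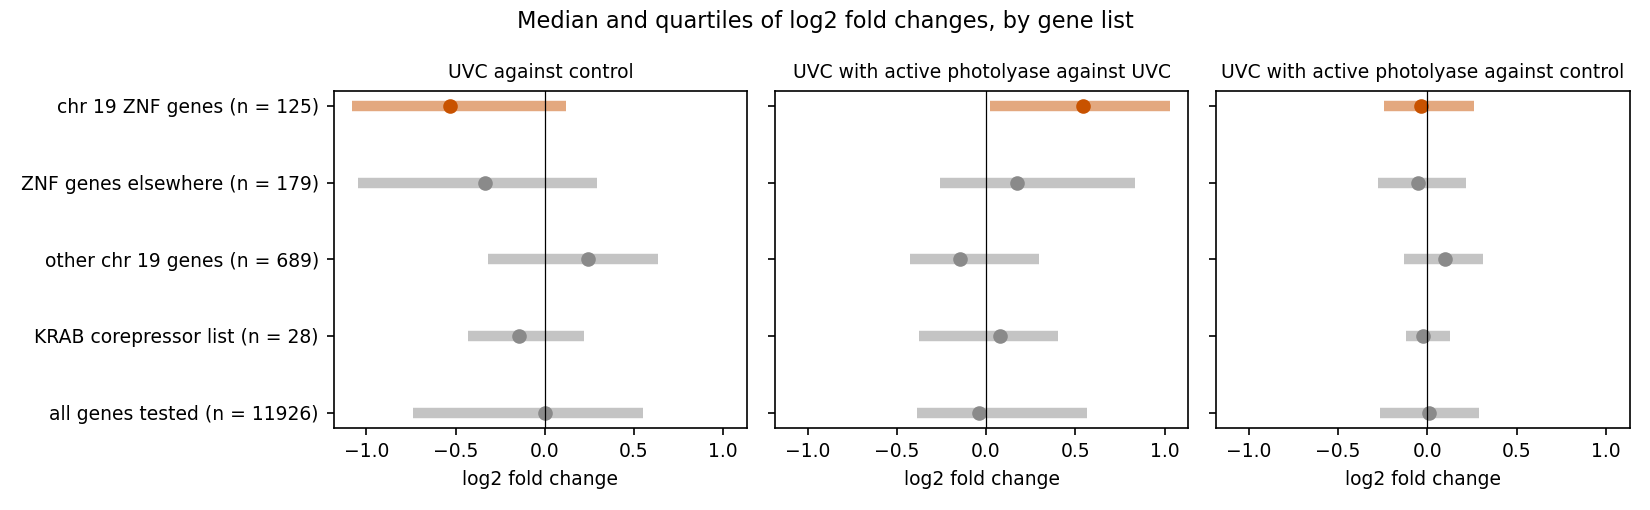
Median (point) and quartiles (bar) of log2 fold changes in the 3 comparisons for 5 gene lists. The ZNF genes of chromosome 19 have medians of −0.53 after UVC and 0.54 with active photolyase against UVC, the other genes of the chromosome 0.24 and −0.14, and against control the medians of all 5 lists lie between −0.05 and 0.10.

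The partners through which KRAB proteins act did not move as a block. Of 28 tested corepressor and heterochromatin genes, 15 were lower (53.6%) and 8 higher (28.6%) after UVC (median log2 change −0.15). Over all tested genes these shares were 43.1 and 42.5%. With active photolyase against UVC, 10 were higher (35.7%) and 9 lower (32.1%; median 0.08), against 39.2 and 39.9% of all tested genes. Against control, 7 were higher (25%) and 6 lower (21.4%; median −0.02), against 33.0 and 32.9%. The difference from all tested genes was not tested. TRIM28 itself had 101 and 94.2 scaled cRPKM after UVC, against 82.5 and 83.2 in control, a log2 change of 0.24 ± 0.06 (adjusted p = 0.00174). With active photolyase it had 98.65 and 107.9 scaled cRPKM, a log2 change of 0.32 ± 0.06 against control (adjusted p = 0.000305). Against UVC that group was not called (0.08 ± 0.06). SETDB1 was not called in any comparison, with 7.52 and 7.60 scaled cRPKM with active photolyase, 7.02 and 7.40 after UVC, and 7.07 and 7.0 in control. EHMT2, the methyltransferase G9a, had 6.57 and 6.36 scaled cRPKM with active photolyase, 12.2 and 11.4 after UVC, and 3.63 and 3.36 in control, and rose after UVC by 1.75 ± 0.07 (log2, adjusted p = 1.32e-11).

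TRIM33, a relative of TRIM28, and TASOR and MORC2, which act in or with the HUSH silencing complex, were lower after UVC and higher with active photolyase than after UVC. The other HUSH subunits did not follow this course: PPHLN1 had log2 changes of 0.14 ± 0.06 after UVC (not called) and −0.57 ± 0.06 with active photolyase against UVC (called lower), and MPHOSPH8 of −0.28 ± 0.06 (called lower) and 0.03 ± 0.06 (not called). TRIM33 had 9.42 and 9.56 scaled cRPKM with active photolyase, 3.81 and 3.97 after UVC, and 8.82 and 9.76 in control (log2 changes −1.26 ± 0.06 after UVC and 1.29 ± 0.06 with active photolyase against UVC). MORC2 had 19.1 and 18.7, then 8.42 and 8.10, and 15.5 and 17.2 scaled cRPKM in the same order (−0.98 ± 0.06 and 1.19 ± 0.06). TASOR had 10.2 and 10.7, then 5.74 and 5.69, and 9.38 and 10.4 scaled cRPKM (−0.79 ± 0.06 and 0.87 ± 0.06). SMARCAD1, a chromatin remodeller, stood at 2.77 and 2.39 scaled cRPKM with active photolyase, 1.5 and 1.67 after UVC, and 4.37 and 4.46 in control, and was below control in both irradiated groups (log2 changes −1.47 ± 0.09 after UVC and −0.77 ± 0.08 with active photolyase).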

How the data were processed

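Gene values came from 6 RNA sequencing libraries of HaCaT cells, prepared per the labels with a TruSeq kit of Illumina. The submitters' processing notes name Bowtie, without a version, and the build hg19. Which counter and gene models were used, and whether strand was used, is not given in the sources used here. The authors deposited 2 values per gene, a raw count of reads and a corrected RPKM (cRPKM) that divides the count by an effective gene length and the library's total.

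The test on counts was that of edgeR 4.0.16, run in R 4.3.3 (quasi-likelihood F test, TMM scaling, 3 group means over all 6 libraries, two-sided) on 11926 genes at 1 cRPKM or more in at least 2 libraries. P-values were adjusted over all of them by Benjamini and Hochberg, and a gene was called under 0.05. Standard errors come from the log2 fold change and the F statistic. The test was tried on simulated data. Symbols come from a table of gene names by Ensembl ID, and chromosomes from GENCODE 29 (GRCh38) or, for genes it lacks, from RefSeq; of the 19493 genes with values, 18913 had a symbol and 18941 a chromosome; promoters are RefSeq's. No annotation of hg19 was used, so gene spans are of GRCh38 and serve as a property only. Zinc fingers (CX2-4CX12HX3-5H, for cysteines and histidines at these gaps) and KRAB-type boxes (18 positions, at most 3 mismatches) were found in translated GENCODE coding sequences, in place of the RefSeq proteins first planned.

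The members and lists were chosen with earlier results of these data known. Named genes were, per comparison, the 10 largest rises and falls among called members whose libraries did not overlap between the groups and whose higher group averaged 2 scaled cRPKM or more, a fixed set of 8 members known from the literature, the 5 of highest level, the smallest p in each subgroup, and those next to the threshold. Alternatives changed the scaling, the filter, the tool (DESeq2 1.42.0; limma 3.58.1 on log2 cRPKM), the libraries fitted and the replicate block. Total counts per library are in the report; they bound the precision of low members.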

Additional observations from a re-analysis of the deposited data

How the results depend on the processing

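Members called lower outnumbered those called higher after UVC, and those called higher outnumbered those called lower with active photolyase against UVC, under every alternative run, but not always as a majority of the 125: 57 were lower after UVC by library totals and 57 and 58 by the 2 limma tests, and 62 were higher with active photolyase against UVC by either limma test. The members' median less that of all genes was −0.54 after UVC, and −0.44 by limma on log2(cRPKM + 1). Counts moved by over 1.5 times in the following. With a filter of 5 cRPKM in 2 libraries, which left 25 members, 17 were lower and 7 higher after UVC, 17 higher and 6 lower with active photolyase against UVC, and 12 higher and 6 lower against control. Under this filter 12 KRAB-type genes were lower and 0 higher after UVC (median −1.075), and 12 higher and 0 lower with active photolyase against UVC (1.1). Of those without the box, 5 were lower and 6 higher after UVC (0.525). With active photolyase against UVC, 5 were higher and 6 lower (−0.228). Members lower with active photolyase against UVC, 18 in the report, numbered 31 by library totals, 33 and 32 by limma on log2(cRPKM + 1) and log2(cRPKM + 0.1), and 11 by DESeq2. Members lower with active photolyase against control, 29 in the report, numbered 18 by library totals and 18 by either limma test. Library totals and limma do not centre on the bulk of genes: by totals, 7095 of all genes were higher and 3542 lower after UVC, and 3318 and 6954 with active photolyase against UVC.

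With 1 library left out at a time, 77 to 82 members were lower and 21 to 27 higher after UVC; 68 to 82 were higher and 10 to 19 lower with active photolyase against UVC, the lowest without UVC replicate 2; and 23 to 30 were higher and 15 to 34 lower against control, the lowest without the second active photolyase library. A lone library was then taken to vary like the other groups. The labels do not say that replicate numbers mark a shared culture or day, so the main test held no replicate block. Same-numbered libraries deviated together with correlations of 0.18 (active photolyase and UVC), 0.05 (active photolyase and control) and −0.02 (UVC and control). These values do not settle whether the libraries were paired. With a replicate block, 81 were lower and 25 higher after UVC. In that fit 79 were higher and 15 lower with active photolyase against UVC, and 29 higher and 30 lower against control.

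Some single members changed sign where the scaling shifted all genes. By library totals the log2 changes were, after UVC, ZNF114 0.24, ZNF460 0.14, ZNF480 0.27, ZNF554 0.39, ZNF586 0.10, ZNF675 0.051, ZNF91 0.045, and with active photolyase against UVC, ZNF440 −0.24, ZNF480 −0.28, ZNF506 −0.072. By limma on log2(cRPKM + 1) they were, with active photolyase against UVC, ZNF440 −0.17, ZNF480 −0.22, ZNF506 −0.051, ZNF564 −0.15, and after UVC, ZNF460 0.099, ZNF480 0.21, ZNF554 0.25, ZNF586 0.070, ZNF616 0.14, ZNF675 0.039, ZNF91 0.039. By limma on log2(cRPKM + 0.1) they were, with active photolyase against UVC, ZNF440 −0.23, ZNF480 −0.27, ZNF506 −0.067, ZNF564 −0.26, and after UVC, ZNF460 0.14, ZNF480 0.25, ZNF554 0.38, ZNF586 0.10, ZNF616 0.26, ZNF675 0.054, ZNF91 0.056. In the main test these log2 changes lay between −0.37 and 0.24. Depth limits the members near the threshold: the lowest member count in a library was 41 reads.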
